A study of Mus musculus with 4 samples.

Results

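The actin cytoskeleton and mechanotransduction genes described here are 43 genes, taken by symbol from a gene list and found as 43 of the 14432 genes in a single-cell count table. They encode the actins and their monomer-binding proteins, the Arp2/3 complex, crosslinkers, membrane linkers, adhesion plaque proteins, myosins, tropomyosins, Rhoa, Rac1, Rac2, Cdc42 and formins. The cells were bone marrow-derived macrophages, primary cells grown out of mouse marrow in M-CSF at 50 ng/mL, from mice aged 8 to 12 weeks. The 4 libraries were untreated wild type cells, wild type cells after 24 h with 100 ng/mL lipopolysaccharide (LPS, a bacterial cell wall component), and the same 2 treatments of cells labelled Trpv4-null. The wild type strain is C57BL/6J by the titles and C57BL/6 by the growth protocol. Trpv4 encodes a calcium-permeable channel opened by mechanical and other stimuli. The design text names 3 mice per genotype and 12 samples, but the cell annotation names only the library, so each group was 1 library, how many mice it pools is not known, and differences between groups could not be checked against replicates.

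Actin filaments grow from monomers that profilin delivers and thymosins hold back, branch through the Arp2/3 complex, and are severed by cofilin. In macrophages this turnover builds ruffles, phagocytic cups and podosomes, while talin, vinculin and zyxin tie filaments to integrins and non-muscle myosin pulls on them. The pool of free actin monomers also controls the transcription factor pair MRTF and SRF, which acts through the CArG box found near many actin-related genes.

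The libraries held 7028 untreated wild type cells, 8288 wild type cells after LPS, 5485 untreated cells labelled Trpv4-null and 6565 cells of that label after LPS, with median depths of 5660.5, 16673.5, 7893 and 16041 unique molecular identifiers (UMIs, each standing for 1 captured mRNA molecule) per cell. Levels are given below as UMIs per 1000000 UMIs of the library (CPM) and always in that order of libraries, and intervals cover counting error only. A UMI counts a molecule, so CPM is a level per captured molecule and is not divided by gene length. Trpv4 itself went against the labels: it gave 5.83, 2.07, 8.60 and 9.62 CPM, from 255, 298, 404 and 1049 UMIs, so the label did not come with fewer counts of the gene. The labels do not say which part of the gene the allele lacks, so counts outside a deleted part would check nothing, and every direction between genotypes below is between libraries as labelled. All 14 macrophage markers reached 20 CPM in every library. The 6 neutrophil markers of 9 that the table holds summed to 177, 48.3, 293 and 25.9 CPM, mostly S100a8 and S100a9, with Ngp at 0 in the library labelled Trpv4-null after LPS. The 3 B cell markers summed to 141, 3.83, 142 and 2.70 CPM, nearly all Ighm, and the 1 T cell marker present, Cd3d, stayed at or under 0.0686 CPM. The neutrophil and B cell lists were lower after LPS in both genotypes, and their part in the results below was not tested. Dendritic cell markers summed to 348, 186, 367 and 202 CPM, nearly all Irf8, which macrophages also express, and stromal markers to at most 25.4 CPM. Platelet markers, nearly all Pf4, summed to 1438 to 4560 CPM, while Ppbp gave at most 6.87 CPM and Itga2b at most 0.383 CPM. Which cells the Pf4 counts came from was not tested, and no mast cell or erythroid marker was in the table. Between 7 and 16 cell barcodes were shared by each pair of libraries.

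A larger share of the captured RNA came from the 43 genes after LPS in both genotypes. The members took 3.67% of all UMIs in untreated wild type cells and 5.70% after LPS, a ratio of 1.55, and 3.43% and 5.61% in the pair of libraries labelled Trpv4-null, a ratio of 1.64. Most of that increase came from the 2 most abundant members, Actb (beta-actin) and Tmsb4x (thymosin beta 4). The pair made up 54.1%, 68.4%, 52.4% and 66.8% of the members' UMIs, and the other 41 members together took 1.68%, 1.80%, 1.63% and 1.86% of all UMIs. In the median cell the members took 3.50%, 5.47%, 3.30% and 5.40% of its UMIs. The central 80% of cells spanned 2.71% to 4.62% in untreated wild type and 4.07% to 7.58% after LPS, and 2.57% to 4.21% and 3.97% to 7.41% in the pair of libraries labelled Trpv4-null, so the treated and untreated cells overlapped only in part. Among cells of 6000 to 12000 UMIs, a range of depth that every library held, the share was 3.76%, 5.58%, 3.38% and 5.44%.

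**Figure D1:**
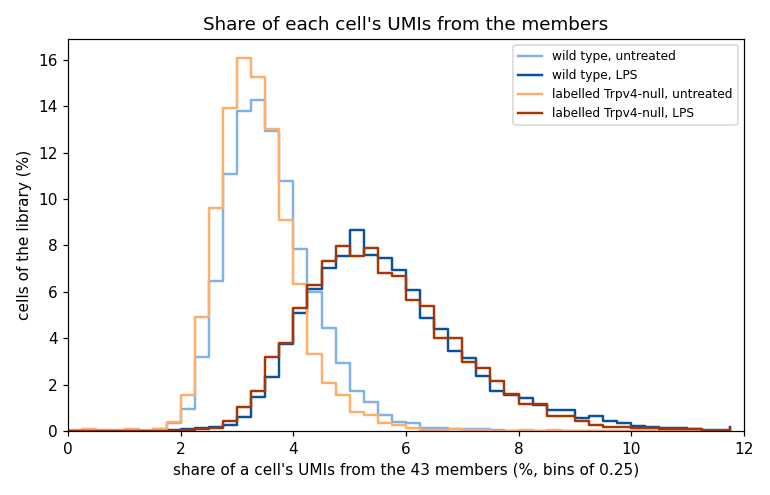
Share of each cell's UMIs that came from the 43 members (x axis, %), as the percentage of a library's cells in bins of 0.25 percentage points (y axis), 1 line per library; cells above 12% are counted in the last bin. Both LPS lines lie to the right of both untreated lines, with medians of 5.47% and 5.40% against 3.50% and 3.30%.

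LPS-treated cells also carried more UMIs in all, 2.79 times as many per cell in wild type and 1.94 times in the pair of libraries labelled Trpv4-null. Summed over the members, UMIs per cell went from 229 to 992 in wild type and from 294 to 932 in the pair of libraries labelled Trpv4-null. Per cell, 41 of the 43 members had more UMIs after LPS in both genotypes, and Actn1 and Fmnl1 had fewer in both. How many of all genes had more UMIs per cell was not counted, so with the larger totals this count is not particular to the members. The comparisons below are of shares of the library, which set that overall difference aside, and whether the larger totals reflect more RNA in a cell or better capture cannot be told apart.

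How far a member stood from its untreated level depended on how the libraries were scaled. After LPS a few genes outside the list took a large part of the total (Fth1 went from 3.94% to 11.1% of wild type UMIs, Saa3 to 4.47%), which lowers the share of all others. Scaling by median-of-ratios size factors in place of totals adds 0.53 to each LPS log2 ratio in wild type and 0.61 in the pair of libraries labelled Trpv4-null. Log2 ratios below use library totals and a pseudocount of 1 CPM, and the values with size factors are given where they change a direction. The 2 untreated libraries and the 2 LPS libraries each serve in more than 1 comparison, so the comparisons are not independent.

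In wild type, 41 of the 43 members reached 20 CPM in 1 of the libraries and were compared, while Fscn1 and Vcl did not. Of these 41, 3 were at least 2-fold higher after LPS (7.32%, against 6.9% of all 6332 genes compared) and 2 were at least 2-fold lower (4.88%, against 17.7% of all genes). Their median log2 ratio was 0.14, where that of all genes compared was -0.39, and 32 of them lay above the median gene. In the libraries labelled Trpv4-null, 40 members were compared; 4 were at least 2-fold higher (10%, against 7.3% of all genes) and 2 at least 2-fold lower (5%, against 21.3%). The median there was 0.24, where that of all genes was -0.42. With library totals the share of members past 2-fold upwards was thus close to the background in both genotypes, and fewer of them than of all genes were past 2-fold downwards. With size factors 9 of 41 were higher (22%, against 14.1% of all genes) and 1 lower (2.44%, against 6.38%) in wild type. For the Trpv4-null label 14 of 41 were then higher (34.1%, against 16.6% of all genes) and 0 lower (7.3% of all genes were). The upward share was therefore above the background with that scaling. Across both genotypes and both scalings, 25 of all 43 members were above their untreated level. Below it were 5 (Actn1, Vim, Zyx, Fmnl1 and Diaph1), and 13 changed direction with the genotype or the scaling. Members under the minimum in 1 or both genotypes are included, Fscn1 among the 25 and Vcl and Ezr among the 13. Of all genes compared, 28.8% (wild type) and 29.3% (Trpv4-null label) were above 0 with library totals. With size factors 61.4% and 63.5% were. The share of all genes above 0 in every one of these comparisons was not counted. Among cells of 6000 to 12000 UMIs, with library totals, Arpc1b (-0.11), Lcp1 (0.25) and Actn4 (0.25) also changed direction in wild type, and Actn4 (0.24), Vcl (0.03) and Myl12b (-0.07) did so for the Trpv4-null label.

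**Figure D2:**
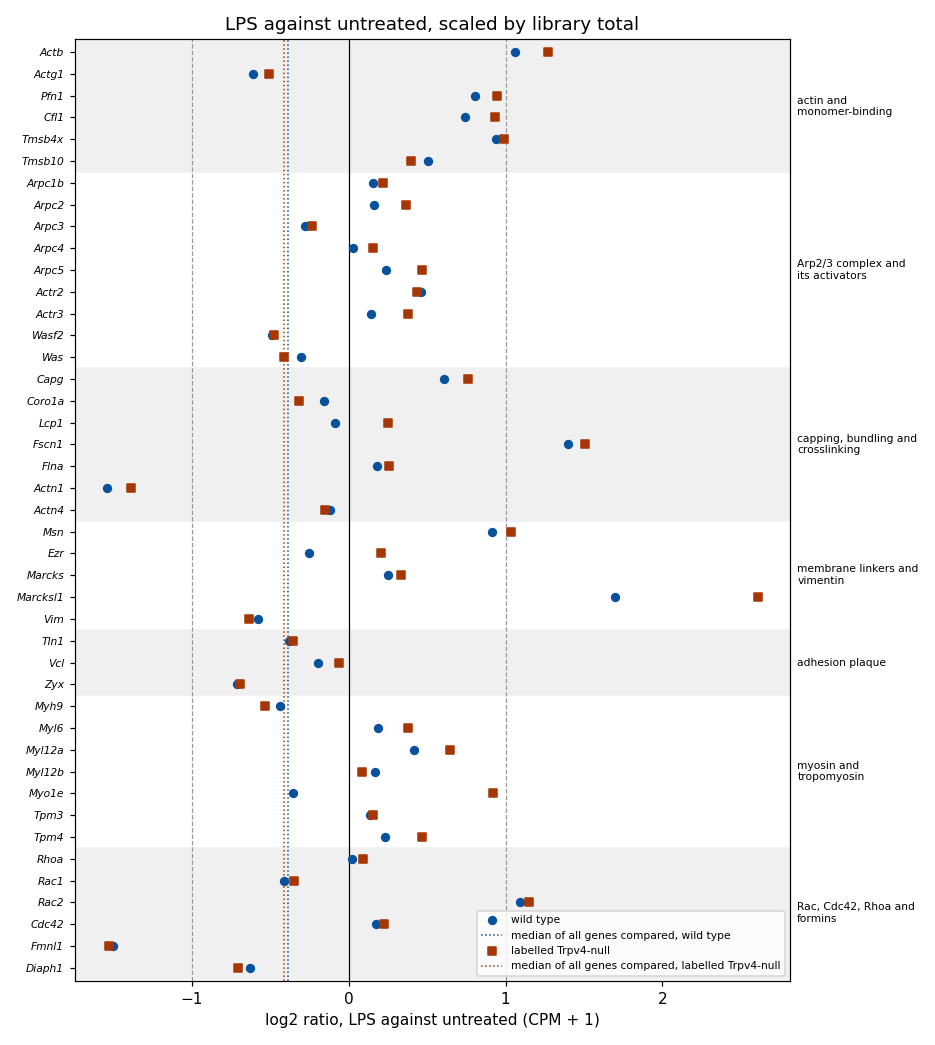
Log2 ratio of LPS against untreated for each of the 43 members (x axis), grouped by role (y axis), in wild type (circles) and in the pair of libraries labelled Trpv4-null (squares); dashed lines mark 2-fold and dotted lines the median of all genes compared, -0.39 and -0.42. Marcksl1 lies farthest to the right at 1.70 and 2.61, and Actn1 and Fmnl1 farthest to the left at -1.54 and -1.50 in wild type.

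The actins parted ways. Actb, at chr5:142903115-142906754 on the minus strand of mm10, gave 4915, 10251, 4416 and 10648 CPM, so both LPS libraries lay above both untreated ones. Its ratio after LPS was 2.09 (95% interval 2.08 to 2.10) in wild type and 2.41 (95% interval 2.40 to 2.42) in the pair of libraries labelled Trpv4-null. Actg1, which encodes the near-identical gamma-actin, went the other way with 1888, 1235, 1748 and 1228 CPM. Its log2 ratios of -0.61 and -0.51 became -0.08 and 0.10 with size factors, so its direction against other genes is not settled by these libraries. The ratio of the 2 actins needs no scaling between libraries: Actb over Actg1 was 2.60, 8.30, 2.53 and 8.67. It was higher after LPS in 8 of 8 clusters of cells in both genotypes, by 2.66-fold to 3.44-fold in wild type and 3.08-fold to 3.76-fold in the pair of libraries labelled Trpv4-null. Reads of such close relatives can be split between them by the counting, which the sources used here do not describe.

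Over all cells, the mRNAs of proteins that hold or recycle actin monomers were higher after LPS in both genotypes, and protein was not measured. Tmsb4x, the main sequestering thymosin and the most abundant member, gave 14975, 28742, 13546 and 26859 CPM, with ratios of 1.92 (95% interval 1.91 to 1.92) and 1.98 (95% interval 1.98 to 1.99). Tmsb10, a second thymosin, gave 244, 346, 290.0 and 382 CPM, with log2 ratios of 0.50 and 0.40 that were 0.02 and 0.16 among cells of 6000 to 12000 UMIs. It was lower after LPS in 1 of 8 clusters in each genotype, by log2 ratios of -0.43 and -0.22. Pfn1, profilin, which loads monomers for growth, gave 933, 1634, 787 and 1519.9 CPM, and its log2 ratios were 0.81 and 0.95. Cfl1, cofilin, which severs old filaments, gave 737, 1234, 675 and 1289 CPM, with log2 ratios of 0.74 and 0.93. Neither Pfn1, Cfl1 nor Tmsb4x reached 2-fold with library totals, and all 3 did in both genotypes with size factors. Tmsb4x, Tmsb10, Pfn1 and Cfl1 each had both LPS values above both untreated ones. With 1 library per group that only orders single values, and the share of all genes doing so was not counted.

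The Arp2/3 complex, which starts branches on existing filaments, moved little against library totals, with none of its 7 subunits at 2-fold, while with size factors Arpc5 and Actr2 passed 2-fold in the pair of libraries labelled Trpv4-null. The largest ratio was that of Actr2, which encodes the Arp2 subunit, in wild type and Arpc5 in the pair of libraries labelled Trpv4-null. Actr2 gave 266, 367, 253 and 342 CPM, with log2 ratios of 0.46 and 0.43. Arpc5 gave 395, 466, 352 and 486 CPM, with log2 ratios of 0.24 and 0.47. Of the 7 subunits, 6 were above their untreated level in both genotypes over all cells, though Arpc1b in wild type was below it (-0.11) among cells of 6000 to 12000 UMIs. Arpc3 stood at 855, 705, 878 and 746 CPM, and its log2 ratios of -0.28 and -0.24 became 0.25 and 0.37 with size factors. Arpc1b, Arpc2, Arpc4 and Actr3 had log2 ratios of 0.15, 0.16, 0.03 and 0.14 in wild type and of 0.22, 0.36, 0.15 and 0.38 in the pair of libraries labelled Trpv4-null. The activators of the complex lay below their untreated level with library totals and above it with size factors. Wasf2, the WAVE2 protein that acts downstream of Rac, gave 208, 148, 197 and 142 CPM and log2 ratios of -0.49 and -0.47, or 0.04 and 0.13 with size factors. Was, the blood-cell WASP that acts downstream of Cdc42, gave 89.0, 71.8, 87.8 and 65.9 CPM and log2 ratios of -0.31 and -0.41, or 0.22 and 0.19 with size factors.

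The mRNAs of crosslinkers and capping proteins spread in both directions. Actn1, alpha-actinin 1, which links filaments in stress fibres and adhesions (chr12:80167547-80260371, minus strand), was the member farthest below its untreated level in wild type. It gave 103, 34.8, 97.0 and 36.4 CPM, ratios of 0.338 (95% interval 0.324 to 0.352) and 0.375 (95% interval 0.360 to 0.392), and both LPS libraries lay far below both untreated ones. Its relative Actn4 stayed nearer to its level, at 84.4, 77.8, 90.1 and 80.8 CPM, and Actn1 over Actn4 was 1.22, 0.448, 1.08 and 0.450. The ratio of the 2 was lower after LPS in 8 of 8 clusters in both genotypes. Capg, which caps filament ends (chr6:72544391-72562983, plus strand), gave 449, 684, 508 and 860.3 CPM and log2 ratios of 0.61 and 0.76. Among cells of 6000 to 12000 UMIs those ratios were 0.14 and 0.50, so the Capg difference was smaller in that range. Only 1550 of 8288 and 1278 of 6565 LPS cells lay in it, so depth and which cells were kept cannot be told apart. Flna, filamin A, gave 126, 143, 129 and 154 CPM, and Coro1a, coronin 1A, 341, 306, 415 and 333 CPM. The log2 ratios of Coro1a were -0.16 and -0.32, or 0.37 and 0.29 with size factors. Lcp1, the leukocyte bundling protein L-plastin, is described with the genotype comparison. Fscn1, fascin, was close to undetected, with 11, 331, 2 and 214 UMIs in the 4 libraries; its ratio after LPS was 9.13 (95% interval 5.04 to 18.5) in wild type, and the 2 UMIs of the untreated library labelled Trpv4-null left the other ratio at 46.1 (95% interval 12.6 to 383).

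Among the proteins that join actin to the membrane, Marcksl1 showed the largest LPS ratio of the members compared. Marcksl1, a protein kinase C substrate that binds actin and membrane phosphoinositides (chr4:129513581-129515985, plus strand), gave 118, 387, 76.5 and 471 CPM. The ratios were 3.27 (95% interval 3.18 to 3.36) in wild type and 6.16 (95% interval 5.96 to 6.38) in the pair of libraries labelled Trpv4-null. A UMI of it was found in 35.0%, 94.5%, 30.3% and 96.2% of cells. After each cell was thinned to 3000 UMIs, which leaves out 666, 122, 209 and 93 shallower cells, the shares were 23.4%, 62.6%, 16.3% and 68.7%. The annotation names no cell type that should lack the gene, so background from free RNA was not measured. Its relative Marcks was more abundant and moved less, at 779, 928, 655 and 827 CPM, and Marcksl1 over Marcks was 0.152, 0.417, 0.117 and 0.570. Msn, moesin, which ties cortical actin to the membrane, gave 182, 345, 182 and 375 CPM, with ratios of 1.89 (95% interval 1.85 to 1.94) and 2.06 (95% interval 2.01 to 2.11). Ezr, ezrin, of the same family, was scarce at 21.9, 18.2, 16.5 and 19.2 CPM, and its wild type log2 ratio of -0.26 became 0.25 with size factors. Vim, vimentin, the intermediate filament protein of these cells, gave 1748, 1168, 2056 and 1322 CPM and log2 ratios of -0.58 and -0.64, which shrank to -0.05 and -0.03 with size factors.

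The adhesion plaque genes held or lost share. Zyx, zyxin, gave 77.6, 47.0, 89.2 and 54.8 CPM, and its log2 ratios of -0.71 and -0.69 were -0.19 and -0.09 with size factors. Tln1, talin 1, which activates integrins, gave 239, 184, 239 and 187 CPM, and its log2 ratios of -0.38 and -0.35 turned to 0.15 and 0.25 with size factors. Vcl, vinculin, stayed under the minimum for comparison at 11.5, 9.88, 10.1 and 9.69 CPM.

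Of the contractile genes, none reached 2-fold in wild type or in the pair of libraries labelled Trpv4-null with library totals; with size factors Myl12a, Myo1e and Tpm4 did in the latter. Myh9, the non-muscle myosin heavy chain, gave 169, 124, 164 and 113 CPM, and its log2 ratios of -0.44 and -0.53 were 0.09 and 0.07 with size factors. The mRNAs of its light chains were higher instead over all cells. Myl6 gave 765, 869, 781 and 1014 CPM, Myl12a gave 136, 182, 129 and 202 CPM and Myl12b gave 145, 162, 150.1 and 159 CPM. Myl12a lies next to its near-identical copy Myl12b and their annotated exons overlap, so the split of counts between them is uncertain. The mRNAs of the tropomyosins, which coat filaments, were slightly higher, Tpm3 at 326, 358, 319.8 and 356 CPM and Tpm4 at 87.9, 103, 69.7 and 96.7 CPM. Myo1e, a single-headed membrane myosin, is described with the genotype comparison.

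The balance of Rac1 and Rac2 shifted toward Rac2. Rac2, the Rac of blood cells (chr15:78559167-78572783, minus strand), gave 222, 476, 223 and 497 CPM, with ratios of 2.14 (95% interval 2.09 to 2.19) and 2.22 (95% interval 2.18 to 2.27). Rac1, the ubiquitous form, gave 414, 311, 384 and 302 CPM, with log2 ratios of -0.41 and -0.35, or 0.12 and 0.26 with size factors. Rac2 over Rac1 was 0.537, 1.53, 0.582 and 1.65, and it was higher after LPS in 8 of 8 clusters in both genotypes. Rhoa, which drives contraction, gave 424, 431, 387 and 411 CPM, and Cdc42, which drives filopodia, 753, 849, 696 and 815 CPM, so both stayed near their untreated share with library totals; with size factors their log2 ratios were 0.55 and 0.71 in wild type. The mRNAs of both formins, which extend unbranched filaments, were lower. Fmnl1, the leukocyte formin (chr11:103171107-103198901, plus strand), gave 58.4, 19.98, 57.3 and 19.2 CPM, with ratios of 0.342 (95% interval 0.324 to 0.361) and 0.335 (95% interval 0.316 to 0.355). With size factors its log2 ratios were -0.99 and -0.94, just short of 2-fold. Diaph1 gave 157, 101, 157 and 95.7 CPM and log2 ratios of -0.63 and -0.71, or -0.10 and -0.10 with size factors.

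**Figure D3:**
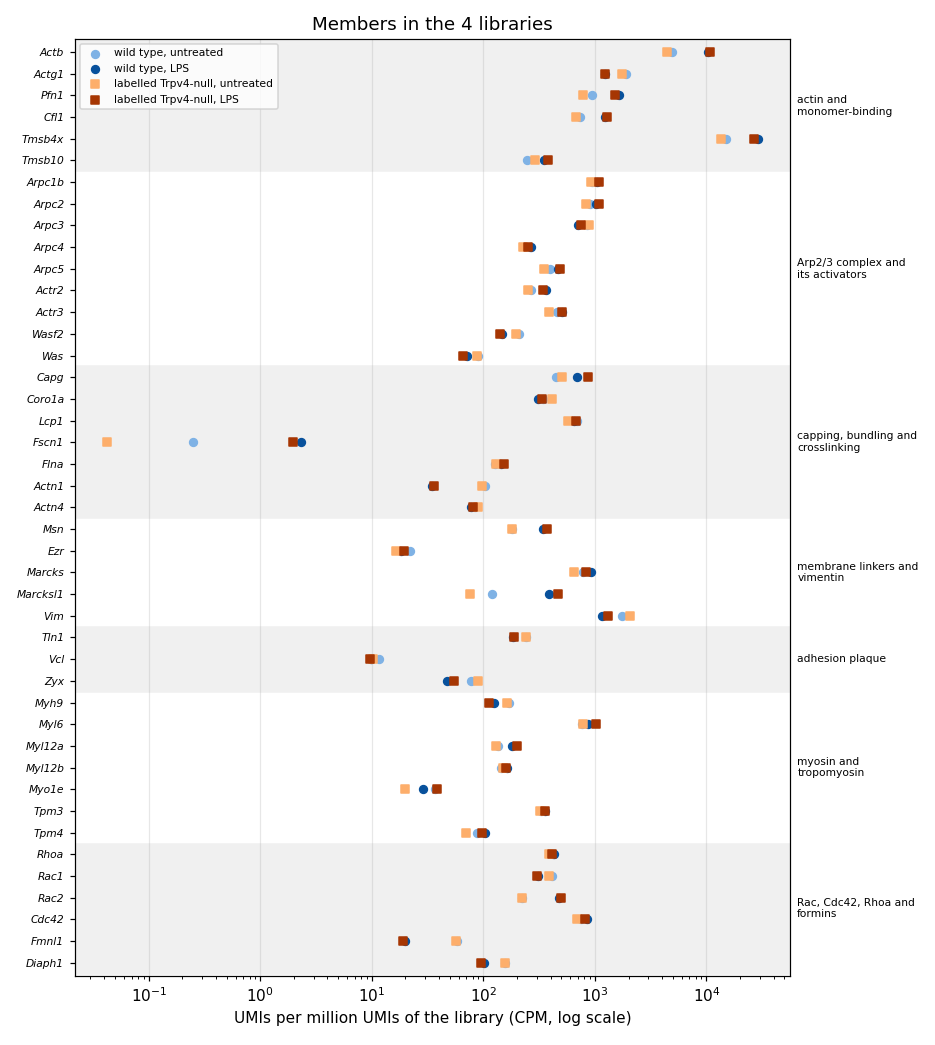
Level of each of the 43 members (y axis, grouped by role) in the 4 libraries as CPM on a log scale (x axis); circles are wild type, squares the libraries labelled Trpv4-null, pale symbols untreated and dark symbols LPS. Tmsb4x and Actb lie far above the rest, from 4416 to 28742 CPM, and Fscn1 far below, at no more than 2.30 CPM.

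Promoter sequences were looked up because several members are textbook targets of SRF. In the RefSeq windows of GRCm38.p6, which run from 250 bases before to 50 bases after a gene's start, 38 of the 43 members were matched, and Actb, Rac1, Rac2, Marcks and Diaph1 were not. A CArG box, meaning a pair of C, a run of A or T and a pair of G, stood in the windows of 5 of the 38 (13.2%): Actg1, Arpc4, Myl6, Myo1e and Vcl. Of all 27025 genes with a window, 1.81% had one. For comparison, a kappa-B site, the motif of the NF-kappa-B factors that LPS activates, stood in 8 of the 38 (21.1%, against 9.55% of all genes), and the AP-1 motif TGANTCA in 4 (10.5%, against 8.97%); both strands were searched for all 3 motifs. The 3 boxes that lie outside annotated exons are shown because their genes differed in the size of their LPS ratio; capitals mark the box.
Myo1e, chr9:70207293-70207349, plus strand: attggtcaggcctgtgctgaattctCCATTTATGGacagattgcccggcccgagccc
Actg1, chr11:120348551-120348610, minus strand: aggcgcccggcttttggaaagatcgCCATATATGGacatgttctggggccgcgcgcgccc
Vcl, chr14:20929148-20929205, plus strand: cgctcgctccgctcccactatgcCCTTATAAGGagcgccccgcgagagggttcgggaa
The boxes begin 32, 90 and 227 bases before the start, and the one of Vcl overlaps a kappa-B match by 2 bases. Whether the 5 genes shared a direction after LPS depended on the scaling. With library totals in wild type Myl6 and Arpc4 had log2 ratios of 0.18 and 0.03, Actg1 and Vcl -0.61 and -0.20, and Myo1e -0.36. With size factors these were 0.72, 0.56, -0.08, 0.29 and 0.16, and for the Trpv4-null label all 5 were above 0, at 0.99, 0.76, 0.10, 0.49 and 1.51. A match is a description of these letters and was not tested for binding.

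Between genotypes the members differed much less than with LPS, and the size counted was set smaller, at 25% higher or 20% lower. In untreated cells 41 members were compared; 0 were past it upwards in the library labelled Trpv4-null (3.41% of all 6156 genes compared were) and 4 were past it downwards (9.76%, against 3.01% of all genes). Their median log2 ratio was -0.08, where that of all genes was -0.02. After LPS 39 members were compared; 2 were higher (5.13%, against 3.04% of all genes), 0 were lower (2.56% of all genes were), and the median was 0.05 against -0.04. The difference between the LPS log2 ratios, labelled Trpv4-null minus wild type, was past the same size above 0 for 4 of 41 members (9.76%, against 4.19% of all genes) and below 0 for 0 (6.29% of all genes were). With size factors the counts were 0 higher and 3 lower of 40 in untreated cells (3.38% and 3% of all genes), and 3 higher and 0 lower of 41 after LPS (5.05% and 1.23% of all genes). For the difference they were 4 above and 0 below of 41 (7.06% and 3.3% of all genes). Since Trpv4 counts did not follow the labels, these are differences between libraries as labelled. The untreated libraries also differed in depth, with medians of 5660.5 and 7893 UMIs per cell, and in their share of proliferating cells, 5.99% and 9.88%.

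Of the members compared, Myo1e differed most between genotypes. Myo1e, which binds membranes and works in endocytosis and adhesion (chr9:70207350-70399766, plus strand) gave 36.7, 28.5, 19.7 and 38.3 CPM: lowest in the untreated library labelled Trpv4-null and highest in the LPS library with that label. Against wild type the ratio was 0.537 (95% interval 0.495 to 0.583) in untreated cells and 1.35 (95% interval 1.29 to 1.40) after LPS. Its LPS log2 ratio was 0.92 in the pair of libraries labelled Trpv4-null and -0.36 in wild type, which became 0.16 with size factors, and the difference between them was 1.28. Within each of 8 clusters it was lower in the untreated library labelled Trpv4-null, by log2 ratios of -1.42 to -0.41, and higher after LPS, by 0.17 to 0.66. Among cells of 6000 to 12000 UMIs the ratios were -1.11 and 0.39. Cells with a UMI of Myo1e made up 15.1%, 32.0%, 11.5% and 38.4%, and after thinning 8.66%, 7.71%, 4.57% and 11.2%.

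Marcksl1 had the same directions between genotypes as labelled, but unlike Myo1e it was higher after LPS in both genotypes. From 118 and 76.5 CPM in the untreated wild type and labelled Trpv4-null libraries it reached 387 and 471 CPM after LPS. The ratio between genotypes as labelled was 0.646 (95% interval 0.619 to 0.674) in untreated cells and 1.22 (95% interval 1.20 to 1.23) after LPS, the second falling short of 25%. It was lower in the untreated library labelled Trpv4-null in 8 of 8 clusters and higher after LPS in 8 of 8. The difference between the LPS log2 ratios was 0.91, and 0.85 among cells of 6000 to 12000 UMIs.

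The other members past that size were Ezr, Tpm4, Capg and Lcp1. Ezr, with a ratio of 0.754 (95% interval 0.685 to 0.830) in untreated cells, rested on 957 and 776 UMIs, and the difference between its LPS log2 ratios was 0.46. Its exons overlap those of Sytl3 on the other strand. Tpm4 had a ratio of 0.793 (95% interval 0.757 to 0.831) in untreated cells and 0.935 (95% interval 0.912 to 0.958) after LPS. Capg was higher in the library labelled Trpv4-null after LPS by a ratio of 1.26 (95% interval 1.247 to 1.27), and by 1.13 (95% interval 1.11 to 1.15) in untreated cells, in 8 of 8 clusters each time. Among cells of 6000 to 12000 UMIs its untreated log2 ratio was 0.03, against 0.18 over all cells, so that difference nearly vanished. After LPS the log2 ratio of Capg was 0.39 in that range, against 0.33 over all cells. Lcp1, which bundles actin in leukocytes, gave 695, 654, 569.7 and 678 CPM, and the difference between its LPS log2 ratios was 0.34. It was lower in the untreated library labelled Trpv4-null in 8 of 8 clusters. Vim and Coro1a were higher in the pair of libraries labelled Trpv4-null in 8 of 8 clusters in both treatments, with log2 ratios of 0.23 and 0.28 in untreated cells and 0.18 and 0.13 after LPS. Among cells of 6000 to 12000 UMIs the untreated values were 0.05 and 0.26, so that of Vim shrank. Actb, Actg1, Pfn1, Cfl1 and Tmsb4x were lower in the untreated library labelled Trpv4-null in 8 of 8 clusters by small amounts, with log2 ratios of -0.15, -0.11, -0.24, -0.13 and -0.14. In that comparison 17 of the 43 members were lower in 8 of 8 clusters and 3 were higher. For the genotype comparisons the share of all genes with 1 direction in 8 of 8 clusters was not counted, and clusters of the same libraries are not replicates. Rac2, Msn, Tln1 and Diaph1 had untreated log2 ratios of 0.01, -0.00, 0.00 and 0.00.

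**Figure D4:**
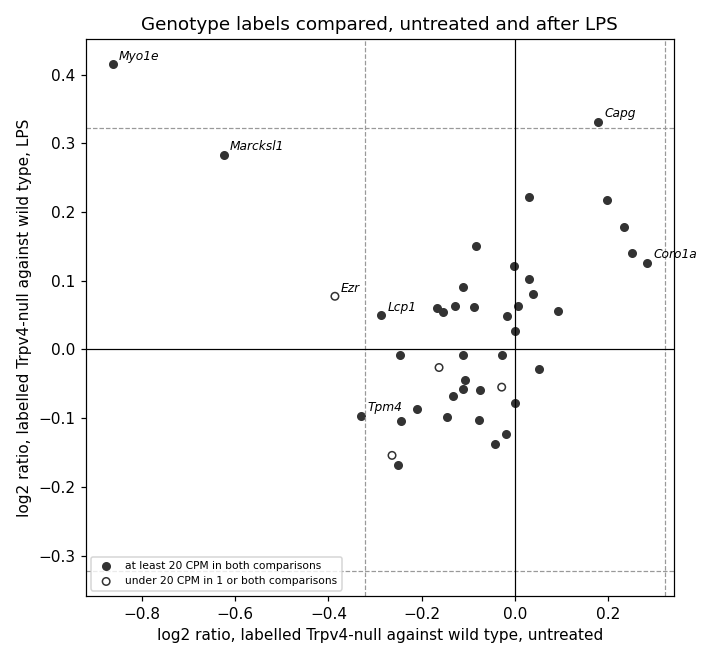
Log2 ratio of the library labelled Trpv4-null against wild type for each member, untreated (x axis) and after LPS (y axis); dashed lines mark 25% higher and 20% lower, and open circles are members under 20 CPM in 1 or both comparisons. Myo1e (-0.86 and 0.42) and Marcksl1 (-0.62 and 0.28) lie apart at the upper left, and most other members lie inside the dashed lines.

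The authors sorted the cells into named clusters, of which 8 held at least 100 cells in every library. These clusters were made from the same counts, so levels across them are a description. Between clusters, 12 members differed 2-fold or more in at least 1 library, and 4 of those differed 3-fold or more (Marcksl1, Myo1e, Tmsb10 and Fscn1). How many of all genes differed as much was not counted. Marcksl1 was highest in the cluster named Il1b+_Cxcl2+ in all 4 libraries, at 244, 446, 170 and 569 CPM, while the proliferating cells had 49.1 CPM in untreated wild type and 31.1 CPM in untreated cells labelled Trpv4-null. Myo1e was highest in untreated High_Lpl_Fabp4+ cells, at 95.2 CPM in wild type and 58.1 in the library labelled Trpv4-null, and lowest in High_Apoe cells, at 13.7 and 7.54. After LPS the Ifit1bl1+_Cmpk2+ cells had its highest level, 51.0 and 59.7 CPM. Tmsb10 was highest in proliferating cells before LPS, at 574 and 549 CPM, against 188 and 211 in High_Apoe cells. Fscn1 UMIs after LPS were densest in the Cd74+ cluster, 26.8 CPM in the wild type library from 113 UMIs and, with 40 UMIs, 8.33 CPM in the one labelled Trpv4-null.

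**Figure D5:**
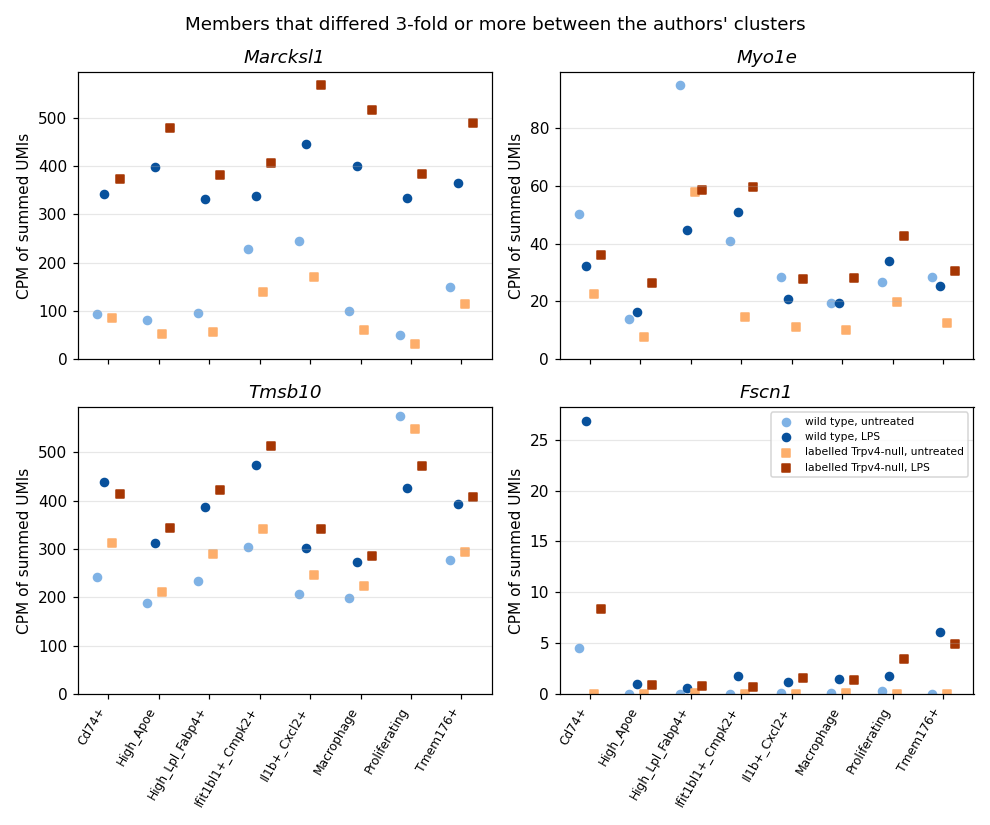
Level (CPM of UMIs summed over the cells of a cluster, y axis) of the 4 members that differed 3-fold or more between clusters, in 8 of the authors' clusters (x axis); circles are wild type, squares the libraries labelled Trpv4-null, pale symbols untreated and dark symbols LPS. Marcksl1 was higher after LPS in every cluster shown, and Myo1e reached its highest value, 95.2 CPM, in untreated wild type High_Lpl_Fabp4+ cells.

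The LPS directions, with library totals, were also looked at within clusters, which come from the same 4 libraries and are not replicates. In wild type, 15 of the 43 members were above their untreated level in all 8 clusters and 13 below it. The counts for the Trpv4-null label were 23 and 13. The share of all genes with 1 direction in 8 of 8 clusters was not counted. The median log2 ratio of all genes lay below 0 in each of the 8, at -0.31 to -0.40 in wild type and -0.36 to -0.43 for the Trpv4-null label. Actb, Pfn1, Cfl1, Tmsb4x, Msn and Rac2 were above in 8 of 8 in both genotypes, and Actg1, Actn1, Vim, Zyx, Fmnl1 and Diaph1 below, of which Actg1 changes direction over all cells labelled Trpv4-null with size factors. The share of UMIs from all members was highest after LPS in the Tmem176+ cluster, 7.26% in wild type and 7.02% in the library labelled Trpv4-null. Those cells had 41549.6 and 36919 CPM of Tmsb4x.

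Other genes of the same machinery were taken from 7 lists with 152 genes in the table. In wild type 115 of them were compared, of which 8 were at least 2-fold higher after LPS and 17 lower, with a median log2 ratio of -0.42. In the libraries labelled Trpv4-null 112 were compared, 7 higher and 20 lower, with a median of -0.38. Of all genes compared, 6.9% were higher and 17.7% lower in wild type, and 7.3% and 21.3% for the Trpv4-null label. With size factors the balance reversed, to 16 higher and 8 lower of 113 in wild type (median 0.11) and 19 higher and 9 lower of 113 for the Trpv4-null label (median 0.23). The medians of all genes were then 0.19 and 0.25. Of all genes 14.1% were then higher and 6.38% lower in wild type, and 16.6% and 7.3% for the Trpv4-null label. The counts over the 7 lists together thus lay near the shares of all genes. With library totals the medians of all genes were -0.39 and -0.42 and those of the members 0.14 and 0.24. The counts by list that follow use library totals, rest on few genes each, and stand beside 6.9% higher and 17.7% lower of all genes in wild type. Among other branching genes, 3 of 11 were at least 2-fold higher in wild type and 0 lower. Cyfip1, a subunit of the WAVE complex, gave 192, 397, 158 and 429 CPM, and Hcls1, the leukocyte cortactin relative, 128, 333, 138 and 314 CPM. Other turnover, capping and bundling genes had 3 of 27 higher and 3 lower. Vasp, which speeds filament growth, gave 142, 409.6, 113 and 372 CPM, Aif1, an actin-bundling macrophage protein, 189, 814, 176 and 817 CPM, and Lsp1, a leukocyte actin-binding protein, 199, 11.7, 215 and 12.2 CPM. The Lsp1 ratio of 0.0588 (95% interval 0.0558 to 0.0620) in wild type was further from 1 than that of any member compared.

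The counts in this paragraph stand beside the same shares of all genes, 6.9% higher and 17.7% lower in wild type. Adhesion and membrane linker genes outside the members had 0 of 17 higher and 2 lower in wild type. A giant scaffold gene was among them: Ahnak gave 1055, 237, 1154 and 231 CPM. Other myosin genes had 0 of 13 higher and 2 lower, with Myo5a at 317, 74.2, 287 and 66.5 CPM. Of the SRF, MRTF and YAP list 5 of 10 could be compared, with 0 higher and 1 lower in wild type: Mkl1, which encodes MRTF-A, at 48.2, 17.4, 49.0 and 16.5 CPM. Tubulins and other cytoskeletal genes had 1 of 12 higher, Tuba1b at 226, 459.8, 276 and 467 CPM, and 2 lower, among them Lmna, lamin A, at 334, 92.6, 347 and 96.0 CPM.

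Between genotypes these lists gave 3 genes higher and 5 lower of 110 in untreated cells, and 1 higher and 3 lower of 102 after LPS, where 3.41% and 3.01% of all genes were past that size in untreated cells and 3.04% and 2.56% after LPS. With size factors the counts were 3 and 4 of 105 in untreated cells and 6 and 1 of 110 after LPS, so the balance after LPS reversed. Of all genes 3.38% and 3% were then past that size in untreated cells, and 5.05% and 1.23% after LPS. Myo10, a filopodial myosin, had the same directions as Myo1e between genotypes as labelled, though likeness to Myo1e was not ranked over these lists. It gave 21.2, 21.9, 12.0 and 26.4 CPM, close to the minimum of 20 CPM. Its log2 ratios were -0.78 in untreated cells and 0.26 after LPS. With size factors Myo10 fell under that minimum in the untreated comparison, and the lowest ratio of the other myosin genes was then -0.30. The 3 genes that were higher in the untreated library labelled Trpv4-null were Tubb4b, Tubb5 and Stmn1, of which at least Tubb5 and Stmn1 are also abundant in dividing cells. Tubb4b gave 56.9, 70.1, 84.9 and 95.6 CPM. As above, the proliferating cluster held 5.99% and 9.88% of untreated cells, and its part in these ratios was not tested.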

How the data were processed

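The deposited table holds UMI counts per gene and cell, not normalized, made by the authors from 10x Chromium libraries. The deposited annotation gives, per the file headers, each cell's UMI count, mitochondrial fraction, library and cluster. The submitters' processing notes name Cell Ranger 3.1.0, Seurat 4, R 4.2 and build mm10 without roles. Cell filters, doublet handling and strand use have no statement in the sources used here; deposited cells had 1003 to 39987 UMIs and no doublet caller was run.

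Counts were summed per library and scaled to CPM (Python 3.11.15 with pandas 2.3.3, scipy 1.17.1 and numpy 2.4.6, edgeR 4.0.16 for TMM factors). A gene was compared where the higher library had at least 20 CPM and 30 UMIs; 2-fold (LPS) and 25% higher or 20% lower (genotype) are sizes. With 1 library per group there was no test. CPM and share intervals are exact 95% (Poisson, Clopper-Pearson), ratio intervals exact conditional; all cover counting error only. The scripts were tested on simulated data. Members and lists were chosen with earlier results of these data known. All members may be named; values in full are given for those past the fold and the highest and lowest of each role group, cluster levels for those differing 3-fold, and up to 3 genes per other list. The result of 1 of the other lists is not reported here. Positions are from GENCODE M21, which matched 14286 of 14432 symbols and 43 of 43 members. Exons of Cfl1, Arpc1b, Arpc4, Coro1a, Actn4, Ezr, Tln1, Vcl, Myl12a, Tpm4, Rhoa and Rac1 overlap those of other genes in the table, so these may share counts.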

Additional observations from a re-analysis of the deposited data

Results flagged for a closer look

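Members with differing directions were 3: each had effects of opposite direction in the 2 groups compared, and in no case was the difference between the groups tested, since each group was 1 library. For Myo1e the LPS log2 ratios were -0.36 (wild type) and 0.92 in the pair labelled Trpv4-null. Its log2 ratio between genotypes as labelled was -0.86 in untreated cells and 0.42 after LPS. With size factors the wild type LPS value was 0.16, so that pair no longer had opposite directions, while the genotype pair did at -0.86 and 0.49. Marcksl1 had a log2 ratio between genotypes as labelled of -0.62 in untreated cells and 0.28 after LPS. For Lcp1 the LPS log2 ratios were -0.087 (wild type) and 0.25 in the pair labelled Trpv4-null, and 0.44 and 0.86 with size factors; among cells of 6000 to 12000 UMIs the wild type value was 0.25, so the directions were then not opposite. Its log2 ratio between genotypes as labelled was -0.29 in untreated cells and 0.050 after LPS.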

How the results depend on the processing

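With 1 library per group, nothing measured the spread between mice or cultures, and depth differed between treated and untreated cells. With median-of-ratios size factors the members' median LPS log2 ratio was 0.67 in wild type (9 past 2-fold higher, 1 lower, with 14.1% and 6.38% of all genes) and 0.84 in the libraries labelled Trpv4-null (14 and 0, with 16.6% and 7.3%); with TMM factors it was 0.66 (9 and 1, where 13.8% and 6.39% of all genes were) and 0.81 (13 and 0, where 15.9% and 7.52% were). With totals that leave out the 20 most abundant other genes it was 0.29 (5 higher, 7.79% of all genes) and 0.37 (8 higher, 8.35%), in the largest cluster alone 0.22 and 0.29 (8 higher in the latter, 7.41%), and among cells of 6000 to 12000 UMIs 0.32 in the libraries labelled Trpv4-null. Between genotypes, untreated, the largest cluster gave a median of -0.028 with 1 member higher and 2 lower (2.92% and 3.67% of all genes), and TMM factors and a pseudocount of 5 CPM each left 2 lower (2.79% and 2.47%). After LPS the median was 0.13 with size factors, 0.12 with TMM factors, 0.033 with clusters weighted equally, 0.029 in the largest cluster and 0.022 among cells of 6000 to 12000 UMIs, where 1 member was lower (Fmnl1; 3.75% of all genes); leaving out the 20 genes left 1 higher (2.77%). The median difference between LPS log2 ratios was 0.14 with size factors, 0.13 with TMM factors and 0.14 among cells of 6000 to 12000 UMIs (1 lower, 10.1% of all genes), and the largest cluster left 2 higher (5.09%). As medians over cells, the members' share was 3.50%, 5.47%, 3.30% and 5.40%. The scaling alternatives shift all genes alike by construction; for the rest the cause was not tested. Actb, Marcksl1 and Rac2 stayed past 2-fold after LPS in 11 of 11 alternatives in both genotypes, Fmnl1 in 9 of 11, and Actn1 in 11 of 11 (wild type) and 9 of 11. Myo1e stayed past the size counted between genotypes in 11 of 11 alternatives in both treatments, and Marcksl1 in untreated cells. No paired analysis was possible because each group is 1 library.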

Other observations

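Across the 8 clusters and 4 libraries (32 points, with each library's mean removed), some members had similar profiles of level. These correlations are descriptions: the points share libraries, depth and the genes used for clustering. The closest pair was Actg1 and Flna with r = 0.88, followed by Myl6 and Myl12a with r = 0.86 and Pfn1 and Myl6 with r = 0.82. Actb was closest to Cfl1, with r = 0.78. The most opposed pair was Actn1 and Rac2, with r = -0.69, followed by Tmsb10 and Arpc4 with r = -0.66.

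Vim was highest in untreated proliferating cells, with 3362 CPM (wild type) and 3415 CPM (labelled Trpv4-null), and lowest in untreated Ifit1bl1+_Cmpk2+ cells, at 1359 and 1570 CPM. Tpm4 and Ezr were also highest in the proliferating cluster in all 4 libraries, with Tpm4 at 137, 153, 120.0 and 152 CPM. Tmsb4x over Tmsb10 was 61.5, 83.1, 46.7 and 70.4, and it was lower in the libraries labelled Trpv4-null in 8 of 8 clusters in both treatments.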
